A study of Homo sapiens with 2 samples.

Results

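Orphan intergenic CpG islands were examined here as 4752 autosomal regions, of 29747 CpG-dense islands on the autosomes. A CpG was called dense where more than 40 other CpGs lay within 500 bp, dense CpGs up to 200 bp apart were joined, and islands of 20 or more CpGs were kept. An island counted as an orphan when it lay outside every protein-coding gene and over 2 kb from every annotated transcription start site (TSS) of GRCh37. The rule used only the positions of CpGs and genes and no methylation value, but it was set with earlier results of these data known. Of the other islands, 20460 lay within 2 kb of a TSS and 4535 inside protein-coding genes.

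Whole-genome bisulfite sequencing, which reads methylated cytosines as C and unmethylated cytosines as T, was carried out on genomic DNA of a pair of human acute myeloid leukemia (AML) cell lines. OCI-AML3 is the line labelled DNMT3A mutant, and the study describes its mutation as heterozygous. OCI-AML5, which the study also writes as AML5, is labelled DNMT3A wild type. Each line gave 1 library from untreated cells cultured in the same medium, so the DNMT3A genotype and every other difference between the lines and their libraries cannot be told apart, and no difference below has a replicate check. The libraries held 902802339 and 894828667 methylation calls over the same 28217448 CpGs, with a median of 28 and 31 calls per autosomal CpG. A count of 0 methylated calls at that depth allows a level of up to 10.7% in OCI-AML3 and 9.68% in OCI-AML5.

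CpG islands are stretches that keep a high density of CpGs, and those at promoters are mostly free of methylation in normal cells. Islands far from annotated promoters have been called orphan islands: some behave as starts of unannotated transcripts or as enhancers of developmental genes, and others belong to GC-rich repeats that are normally methylated. DNMT3A is a de novo DNA methyltransferase, which adds methyl groups at CpGs that carry none on either strand. SVA elements, composite retrotransposons with a CpG-rich tandem repeat, begin with a run of the hexamer CCCTCT.

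The sequences below are the 300 bp stretches with the most CpGs, on the plus strand of GRCh37, in lower case with each CpG in capitals. The first 3 are shown because they belong to the largest decrease and the 2 largest increases in OCI-AML3 against OCI-AML5.
chr22:46457431-46457730: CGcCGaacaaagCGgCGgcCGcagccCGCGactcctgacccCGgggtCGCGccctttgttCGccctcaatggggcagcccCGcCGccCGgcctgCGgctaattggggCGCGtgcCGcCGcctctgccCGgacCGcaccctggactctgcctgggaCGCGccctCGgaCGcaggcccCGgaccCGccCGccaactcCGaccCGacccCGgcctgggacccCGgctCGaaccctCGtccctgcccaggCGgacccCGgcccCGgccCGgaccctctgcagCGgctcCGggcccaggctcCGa
chr19:40314899-40315198: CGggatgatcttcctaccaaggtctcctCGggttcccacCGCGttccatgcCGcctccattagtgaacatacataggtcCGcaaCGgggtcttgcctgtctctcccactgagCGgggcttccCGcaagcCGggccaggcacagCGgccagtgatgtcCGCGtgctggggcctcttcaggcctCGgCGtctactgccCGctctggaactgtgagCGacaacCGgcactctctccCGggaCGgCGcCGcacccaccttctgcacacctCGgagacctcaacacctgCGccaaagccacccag
chr5:92930766-92931065: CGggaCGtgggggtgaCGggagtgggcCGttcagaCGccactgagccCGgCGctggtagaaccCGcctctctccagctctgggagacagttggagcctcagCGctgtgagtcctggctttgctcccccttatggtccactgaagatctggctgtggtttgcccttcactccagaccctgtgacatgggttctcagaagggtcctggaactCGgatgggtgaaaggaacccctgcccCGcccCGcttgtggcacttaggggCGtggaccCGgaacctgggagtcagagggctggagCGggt
All 41 CpGs of the chromosome 22 stretch were read over 5 times in both lines, and averaged 0.126% methylated calls in OCI-AML3 against 95.9% in OCI-AML5. The chromosome 19 stretch held 24 CpGs, at 83.3% in OCI-AML3 and 1.77% in OCI-AML5. The chromosome 5 stretch, near NR2F1, held 15 CpGs at 85.4% and 15.3%.

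A further pair of stretches is shown for large islands that were low in both lines.
chr17:1953292-1953591: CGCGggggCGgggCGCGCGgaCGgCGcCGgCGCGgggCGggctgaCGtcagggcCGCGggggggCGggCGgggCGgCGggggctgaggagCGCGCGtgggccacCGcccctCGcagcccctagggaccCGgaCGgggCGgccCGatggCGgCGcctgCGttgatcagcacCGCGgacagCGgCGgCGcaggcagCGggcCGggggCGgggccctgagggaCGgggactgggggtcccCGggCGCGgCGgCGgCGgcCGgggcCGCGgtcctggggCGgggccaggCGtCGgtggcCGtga
chr10:102414426-102414725: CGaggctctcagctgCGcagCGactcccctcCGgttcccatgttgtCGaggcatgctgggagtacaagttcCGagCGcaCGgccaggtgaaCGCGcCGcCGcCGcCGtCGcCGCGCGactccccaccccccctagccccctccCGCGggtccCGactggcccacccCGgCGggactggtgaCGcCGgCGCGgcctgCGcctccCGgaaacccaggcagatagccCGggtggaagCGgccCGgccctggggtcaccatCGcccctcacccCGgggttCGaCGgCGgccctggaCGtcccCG
The chromosome 17 stretch, upstream of HIC1, held 53 CpGs in 300 bp, of which 86.0% were G or C, and its level was 0.158% in OCI-AML3 and 0.144% in OCI-AML5. The chromosome 10 stretch, 78.4 kb from PAX2, held 39 CpGs, of which 33 were covered, and stood at 3.72% and 29.2%.

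The last stretch comes from the third largest family of orphan islands that share sequence, and is shown because its GC content is low for a CpG-dense island.
chr2:91614487-91614786: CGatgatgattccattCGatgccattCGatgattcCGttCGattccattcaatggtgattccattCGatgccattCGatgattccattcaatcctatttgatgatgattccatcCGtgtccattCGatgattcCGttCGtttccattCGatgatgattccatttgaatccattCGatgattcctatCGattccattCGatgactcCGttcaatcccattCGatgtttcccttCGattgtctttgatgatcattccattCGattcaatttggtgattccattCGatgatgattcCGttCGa
It is made of short repeats around the letters ATTCC with a GC content of 40.7%, and its 22 CpGs stood at 63.6% in OCI-AML3 and 74.9% in OCI-AML5.

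Orphan islands were mostly methylated in both lines. An island's level was the mean over its CpGs with more than 5 reads in both lines, each CpG's level being methylated calls over all calls, and was given for islands with at least 10 such CpGs. A level could be set for 4612 of the 4752 islands, and the other 140 had too few covered CpGs. The median level was 81.7% in OCI-AML3 (interquartile range 54.8 to 90.3) and 86.6% in OCI-AML5 (63.4 to 91.8). The same medians were 12.3% and 20.7% for 20214 islands within 2 kb of a TSS, and 89.1% and 91.8% for 4481 islands inside protein-coding genes. Orphan islands therefore lay far nearer to gene body islands than to promoter islands.

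With low set as under 20% and high as over 66%, 3046 orphan islands (66.05%) were high in both lines and 328 (7.11%) were low in both. Of the promoter islands 47.6% were low in both lines, and of the gene body islands 2.90%. Intermediate levels, from 20% to 66% in both lines, were found at 520 orphan islands (11.3%). A full switch was rare. In 30 islands the level was low in OCI-AML3 and high in OCI-AML5, in 7 the reverse held, and the other 681 combined neighbouring states.

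**Figure D1:**
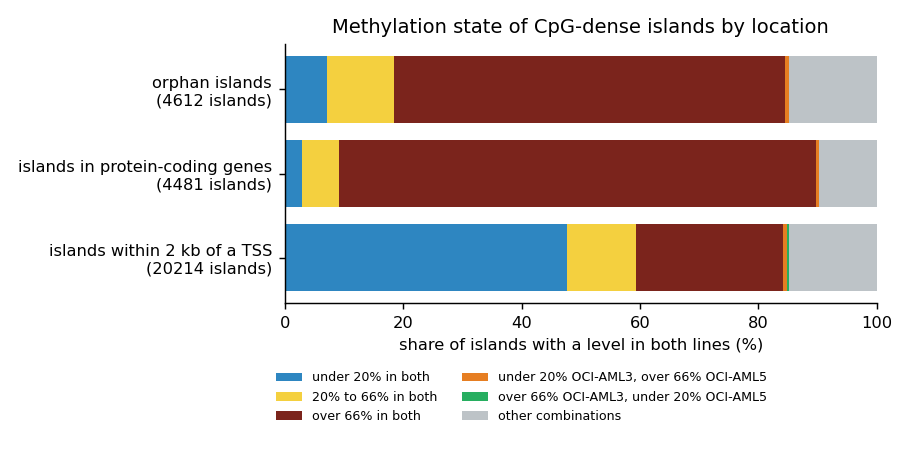
Share of islands (%) with a level in both lines that fell into each methylation state, for 4612 orphan islands, 4481 islands in protein-coding genes and 20214 islands within 2 kb of a TSS. The bar of orphan islands is dominated by the state over 66% in both lines, at 66.05%, while 47.6% of the promoter islands were under 20% in both.

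Islands low in both lines were richer in CpGs for their base composition than islands high in both. The observed over expected CpG ratio had a median of 0.722 in the 328 low islands and 0.605 in the 3046 high ones, and stood at 0.632 over all orphan islands against 0.748 over promoter islands. Orphan islands were also smaller, with a median length of 877 bp and 55 CpGs against 1269 bp and 94 CpGs at promoters. Their GC content was much the same, 64.7% against 64.3%.

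Short motifs of factors that bind at promoters were searched for on both strands in the central 300 bp of each island. The SP/KLF GC box GGGGCGGGG was present in 6.31% of orphan islands, 17.5% of promoter islands and 14.0% of all islands. Within the orphan islands it was found in 61 of the low islands (18.6%) and in 94 of the high ones (3.09%). The share in the low orphan islands was near that of promoter islands of any level, and promoter islands low in both lines were not counted separately. The CTCF core AGGGGGCGC was found in 2.23% of orphan islands and 2.54% of all islands, with 5.49% of the low and 1.15% of the high orphan islands. The NRF1 motif GCGCATGCG was found in 0.358% of orphan islands against 1.21% of all, the ETS motif ACCGGAAGT in 0.0631% against 0.487%, and the cyclic AMP response element TGACGTCA in 0.337% against 0.874%. The TATA box TATAAA differed little, at 1.96% against 1.83%. A match of letters does not show that a factor was bound.

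In both lines most orphan islands lay within 20 percentage points of their flanks, and a large minority stood farther apart. Over 4576 islands, the flank between 1 and 5 kb outside the island had a median level of 71.0% in OCI-AML3 and 80.7% in OCI-AML5. The median island stood above its own flank, by 8.74 percentage points in OCI-AML3 and 4.05 in OCI-AML5. In OCI-AML3 1176 islands were over 20 points above their flank and 942 over 20 points below it, and in OCI-AML5 the numbers were 608 above and 920 below. Islands below their flank were thus nearly equal in number in the lines, and those above it were more numerous in OCI-AML3, where the flanks were lower.

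The mean profile of the islands low in both lines fell from 62.5% and 72.2% in the bin 250 to 500 bp before the island to 1.19% and 2.36% at its centre, in OCI-AML3 and OCI-AML5 respectively. Islands high in both lines rose to 87.5% and 89.3% at their centre and fell to 65.5% and 73.8% at 5 kb. The gap between the lines at the high islands was therefore narrow at the centre and wide in the flanks.

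Between the lines, the difference at orphan islands was small at most islands and spread widely. The median difference, OCI-AML3 minus OCI-AML5, was -2.86 percentage points (95% order-statistic interval over islands -3.18 to -2.60), with an interquartile range from -8.77 to 0.365 and a range from -94.5 to 74.5. The level was lower in OCI-AML3 at 3331 of 4612 islands (72.2%). The median difference was -1.43 points at promoter islands, -2.09 at gene body islands and -1.73 over all dense islands, and the mean level over all autosomal CpGs was 67.6% in OCI-AML3 against 75.3% in OCI-AML5. Island levels of the lines correlated over the 4612 islands, with a Pearson r of 0.883 and a Spearman rho of 0.843; islands are not independent samples and share a library within each line.

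By size alone, 391 islands (8.48%, Wilson 95% interval 7.71 to 9.32) were lower in OCI-AML3 by over 20 points, against a background of 7.62% over all 29307 dense islands with a level. Another 128 (2.78%, interval 2.34 to 3.29) were higher by over 20 points, against 3.26%. Both shares lay close to this background, of which 20214 islands were promoter islands. The shares lower and higher were 7.78% and 3.67% at promoter islands, and 6.03% and 1.87% at gene body islands. Both orphan shares were thus above those of gene body islands, the class nearer to them in level. Of 285525 CpGs tested in orphan islands by Fisher's exact test on the reads of the 2 libraries, 13.5% were lower in OCI-AML3 at an adjusted p under 0.05, against 14.7% of all nuclear CpGs, and 6.36% were higher, against 3.86%. Over all dense islands these shares were 11.8% and 5.99%. The test compares 2 libraries and not genotypes, and more reads give more calls: the median island depth was 44 in OCI-AML3 and 33 in OCI-AML5, or 1.57 and 1.06 times the autosomal median of each library. The share of CpGs called lower moved with depth: it was 4.72% in islands under 0.5 times the autosomal median in either line, 12.3% in the 2938 islands at 0.5 to 2 times in both and 20.2% in islands over 2 times in either. The CpGs called higher made up 2.23%, 6.50% and 7.65% in the same order. By size, which does not depend on the number of calls in this way, 4.91%, 8.48% and 10.1% of the islands were lower by over 20 points and 1.70%, 2.93% and 2.88% higher.

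A large part of the orphan islands shared sequence with other orphan islands. Islands were joined into a family where at least 20% of the distinct 31-base words of the smaller one, on either strand, occurred in the other. Joins ran in chains, so some islands of a family may share no words directly. The rule gave 114 families with 1395 islands (29.4%) and left 3357 islands with no such relative. The largest family held 903 islands on all 22 autosomes and the second 148, also on 22, while 64 families were pairs. A run of 3 CCCTCT hexamers, a feature of SVA elements, lay in or within 500 bp of 382 islands of the largest family (42.3%), of 42 of the 3701 islands outside the 2 largest families (1.13%), and of none of the 148 of the second. The families were not classified with a repeat library.

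The families were heavily methylated in both lines. In the largest family the median level over 887 islands was 88.9% in OCI-AML3 and 91.0% in OCI-AML5, and 867 islands (97.7%) were high in both. Its median difference was -1.83 points, and 9 islands were lower and 1 higher by over 20 points. The lower quartile in OCI-AML5 was 88.6%, which left most of these islands no room to be higher by over 20 points. In the second family the medians were 91.3% and 92.4% over 148 islands, with 141 high in both lines, a median difference of -1.38 points and 3 islands past 20 points in each direction. Depth was lower in the largest family, at a median of 29 and 23 calls per CpG.

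The third family was of another kind. Its 8 islands all lay on chromosome 2, with a median GC content of 37.7% and a median length of 3047 bp. Their median levels were 59.1% in OCI-AML3 and 71.6% in OCI-AML5, and in all 8 the level was lower in OCI-AML3, by a median of 13.0 points, with the smallest difference at -10.9 and the largest at -18.8. The difference was not particular to the islands: the median difference was -14.0 points in their flanks and -11.6 in their surroundings up to 100 kb. Their median depth was 3.5 and 14.3 calls per CpG, so these levels rest on the CpGs read over 5 times in both lines. How the aligner placed reads among repeated copies was not tested here.

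The 3316 islands with a level and no relative had lower levels and more large differences than the families. Their medians were 75.4% and 82.6% and their median difference -3.59 points. Of them 364 (11.0%) were lower in OCI-AML3 by over 20 points and 118 (3.56%) higher. All but 15 of the 328 islands low in both lines were found here.

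**Figure D2:**
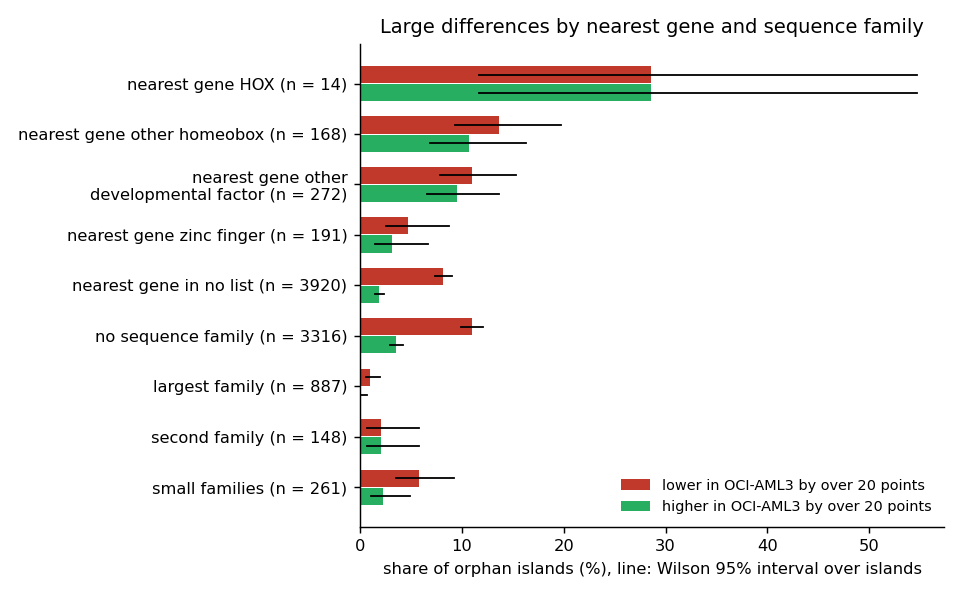
Share of orphan islands (%) that differed by over 20 percentage points between the lines, lower in OCI-AML3 (red) or higher (green), by the list that holds the nearest protein-coding gene and by sequence family, with Wilson 95% intervals over islands and n beside each name. Single islands reach 11.0% lower, the largest family 1.01%, and islands nearest to homeobox genes outside the HOX clusters 13.7% lower and 10.7% higher.

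The islands were next grouped by the nearest protein-coding gene, which says where an island is and not which gene it acts on. Islands nearest to HOX genes, other homeobox genes or other developmental transcription factors made up 454 of the 4612 (9.84%), against 3.69% of promoter islands and 4.04% of gene body islands. Homeobox genes code for transcription factors that set position and cell identity in the embryo. The islands nearest to all 3 kinds of gene had lower levels than the rest, with medians of 64.4% in OCI-AML3 and 62.7% in OCI-AML5, against 83.2% and 87.4% for the other 4158. The median of the island differences was -3.44 points near these genes and -2.81 in the rest.

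Large differences near developmental genes went in both directions. Of the 454 islands, 57 (12.6%) were lower in OCI-AML3 by over 20 points and 48 (10.6%) higher, while of the other 4158 islands 334 (8.03%) were lower and 80 (1.92%) higher. Seen from the other side, developmental genes were nearest to 48 of the 128 higher islands (37.5%), 57 of the 391 lower ones (14.6%) and 8.53% of those within 20 points. They were also nearest to 134 of the 520 islands of intermediate level in both lines (25.8%) and to 5.71% of those high in both. Depth near developmental genes was similar to the rest, at medians of 48.5 and 35.0 calls per CpG against 43.3 and 32.5. Of the 454, 429 had no sequence relative, and among these 55 (12.8%) were lower and 48 (11.2%) higher. Of the other 2887 islands with no sequence relative 309 (10.7%) were lower and 70 (2.42%) higher. Without the families, then, the share lower was nearly the same near developmental genes as elsewhere, and the share higher was larger. An island already highly methylated in OCI-AML5 has no room to be higher by over 20 points. The median level in OCI-AML5 was lower near developmental genes than in the rest. The shares were not compared at equal levels, so the gap in the share higher cannot be separated from that room.

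By list, the 14 islands nearest to HOX genes had medians of 57.6% and 45.8%, with 4 lower and 4 higher. The 168 nearest to other homeobox genes had medians of 58.4% and 51.3%, with 23 lower and 18 higher. The 272 nearest to other developmental factors had medians of 70.0% and 72.4%, with 30 lower and 26 higher. Islands nearest to zinc finger genes of the ZNF group, 191 in number, stood at 82.4% and 85.9%, with 9 lower and 6 higher. In the homeobox lists the median level was thus higher in OCI-AML3, although the median of the island differences was -3.41 points for HOX and -2.89 for the others.

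The remaining lists were short. All 7 islands nearest to imprinted genes were high in both lines and none differed by over 20 points. These genes could be far off, such as RTL1 at 326 kb from chr14:101696057-101696756. At the island nearest to SNRPN, chr15:25017907-25018906, 49.9 kb from it, the level was 80.1% in OCI-AML3 and 68.5% in OCI-AML5. The 6 islands nearest to myeloid transcription factors ranged from low to high, and 1 was lower by over 20 points. At chr3:169385904-169387423, 4.34 kb from MECOM, a stem cell transcription factor gene, the levels were 30.1% and 27.9%. At chr11:33850312-33851117, 29.0 kb from LMO2, they were 31.5% and 46.6%. Of 29 islands nearest to the listed subtelomeric genes 3 were lower by over 20 points, and of 5 nearest to the immunoglobulin segment IGHV3OR16-17 on chromosome 16 1 was.

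The island with the largest decrease was chr22:46456871-46458291, inside the long noncoding gene MIRLET7BHG, the host of let-7 microRNAs, and 2.83 kb from the nearest annotated TSS. Its 130 CpGs had a mean level of 0.465% ± 0.788 (SD over CpGs) in OCI-AML3 and 94.9% ± 4.33 in OCI-AML5. All 130 were lower in OCI-AML3 by Fisher's exact test at an adjusted p under 0.05. The flanks moved with it, at 0.810% in OCI-AML3 and 90.8% in OCI-AML5, so the unmethylated stretch reached well beyond the island. The median depth was 73.0 and 35.5 calls per CpG. The nearest protein-coding gene was WNT7B, a secreted signalling ligand, at 83.8 kb.

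At the next 3 decreases the flanks in OCI-AML3 stood far above the island. At chr6:73912013-73912432, 3.44 kb from the potassium channel gene KCNQ5, the 22 CpGs stood at 1.24% ± 1.42 in OCI-AML3 and 93.3% ± 8.08 in OCI-AML5, while the flanks stood at 85.0% and 81.6%. At chr2:164204741-164205237, 59.2 kb from any TSS and 245 kb from FIGN, the 30 covered CpGs stood at 1.72% ± 1.82 and 93.6% ± 7.37, with flanks of 75.7% and 85.7%. At chr5:180596444-180597485, 10.2 kb from the olfactory receptor gene OR2V2, the 71 CpGs stood at 3.07% ± 4.33 and 92.8% ± 7.86, with flanks of 58.9% and 72.4%, the lowest of the 3 in OCI-AML3. This last island belonged to the largest sequence family and was its greatest decrease.

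The next 4 decreases lay near genes of unlike function. The island chr11:124587894-124588652, 20.5 kb from the sperm protein gene SPA17, stood at 4.13% in OCI-AML3 and 91.9% in OCI-AML5. The island chr5:71852503-71852979, 49.3 kb from ZNF366, stood at 0.910% and 84.0%. The island chr16:88937056-88937562, 3.70 kb from CBFA2T3, a transcriptional corepressor gene active in blood progenitors, stood at 1.40% and 83.1%. The island chr9:139514986-139515979 between NOTCH1, a receptor gene, and EGFL7 stood at 12.8% and 92.8%. In all 4 the flanks were at 70.7% or higher in OCI-AML3.

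The last of the 10 largest decreases lay near a myeloid gene and a transporter gene. At chr16:85981409-85981989, 25.2 kb from IRF8, a transcription factor gene of monocytes and dendritic cells, the 33 CpGs stood at 15.8% ± 18.6 in OCI-AML3 and 94.7% ± 3.45 in OCI-AML5, with flanks of 88.6% and 87.8% and a depth of 47.0 in both. A second island, chr16:86006059-86007789, 49.8 kb from IRF8, stood at 92.9% and 95.2%, so the islands near this gene did not move together. At chr17:73073089-73074207, within the pseudogene TRIM80P near SLC16A5, the levels were 17.4% ± 29.96 and 94.8% ± 5.43.

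The largest increase was at chr19:40314899-40315536, 0.454 kb outside the kinase gene DYRK1B and 5.25 kb from its TSS. Its 38 CpGs stood at 81.2% ± 18.3 in OCI-AML3 and 6.75% ± 18.3 in OCI-AML5, and 36 of them were higher by the test on reads. Its flanks were methylated in both lines, at 84.4% and 92.4%, so OCI-AML5 held an unmethylated island where OCI-AML3 held a methylated one. The pair of islands chr1:149332870-149333410 and chr1:149333613-149334216, 55.7 and 54.9 kb from the histone gene H3-7, was also methylated in OCI-AML3, but of intermediate level in OCI-AML5. The first stood at 94.4% and 26.7%, with a depth of 130.5 and 60 calls per CpG, and the second at 84.5% and 27.6%.

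Of the 10 largest increases, 3 lay nearest to developmental factors. At chr5:92930705-92931174 near NR2F1, an orphan nuclear receptor gene, the 20 CpGs stood at 87.5% ± 10.8 in OCI-AML3 and 17.8% ± 16.9 in OCI-AML5. At chr1:63795279-63796264, 4.48 kb from FOXD3, a forkhead gene of pluripotent and neural crest cells, the 69 CpGs stood at 85.0% ± 13.8 and 18.5% ± 26.5. At chr7:27259970-27260586, between HOXA13, a gene of distal limb patterning, and EVX1, the 51 CpGs stood at 80.0% ± 15.9 and 17.9% ± 26.3. Unlike the DYRK1B island, these had flanks that were also higher in OCI-AML3, with 75.3% against 34.1% near NR2F1, 66.4% against 39.7% near FOXD3 and 76.4% against 54.1% near HOXA13.

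The other increases had few calls or lay far from protein-coding genes. At chr3:197830008-197832677, 59.4 kb from LMLN, the levels were 69.6% and 1.76%, but 47 of its 143 CpGs were covered and its median depth in OCI-AML5 was 3.0. At chr10:42672476-42673584, 396 kb from ZNF33B, the levels were 87.6% and 26.99% with a depth of 6.0 in both lines. At chr10:132098892-132100030, inside the long noncoding gene LINC02646 and 116 kb from GLRX3, the levels were 66.5% and 8.83%. At chr7:64699570-64700698, 138 kb from ZNF92 and 2.47 kb from a TSS, they were 88.3% and 32.4%.

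A pair of islands between HOXA13 and EVX1 differed in opposite directions. The island chr7:27244531-27245651, 4.82 kb from HOXA13 and inside the long noncoding gene HOTTIP, had 81 CpGs at 0.288% ± 0.960 in OCI-AML3 and 41.7% ± 26.8 in OCI-AML5, and 61 of them were lower. The other island of the pair, described above and farther from HOXA13, was higher in OCI-AML3. The named islands of other HOX clusters were higher in OCI-AML3. At chr12:54329421-54330126 near HOXC13 the levels were 67.9% and 27.7%. At chr17:46719033-46720458 near HOXB7 they were 73.7% and 44.9%.

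Near other homeobox genes, 3 of the 4 largest differences were increases. The island chr4:85422688-85423387 near NKX6-1, a gene of pancreatic and neural development, stood at 86.6% ± 14.7 in OCI-AML3 and 32.1% ± 23.5 in OCI-AML5. The island chr1:91171880-91173112 near BARHL2 stood at 80.2% and 26.4%, and chr4:147568753-147569769 near POU4F2 at 93.5% and 44.6%, both genes of retinal neurons. The island chr1:221060416-221061491, 2.02 kb from HLX, a homeobox gene of blood and gut, went the other way, at 37.6% in OCI-AML3 and 87.4% in OCI-AML5.

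Near developmental factors without a homeobox, 3 of the 4 largest differences were decreases. The island chr8:70906560-70907375, 56.5 kb from PRDM14, a germ line and pluripotency gene, stood at 17.7% ± 35.4 in OCI-AML3 and 92.9% ± 8.81 in OCI-AML5. The island chr21:34391928-34392911, 5.33 kb from the oligodendrocyte factor gene OLIG2, stood at 15.3% and 86.3%, and chr6:1554973-1555961, 54.2 kb from FOXC1, at 10.7% and 81.5%. Near zinc finger genes the 4 largest differences were decreases, from the ZNF366 island above to chr16:68543760-68544548 near ZFP90 (24.2% and 89.0%), chr16:30816488-30817496 near ZNF629 (12.7% and 77.3%) and chr8:102092653-102093412 near ZNF706 (21.1% and 85.4%).

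The median flank difference between the lines was smaller at the islands higher in OCI-AML3 than at the others, with large flank differences in both directions. The flank was lower in OCI-AML3 at 357 of 390 islands that were themselves lower by over 20 points (91.5%), with a median flank difference of -9.58 points. It was lower at 3610 of 4059 islands within 20 points (88.9%), with a median of -9.24. At the higher islands the flank was lower at 77 of 127 (60.6%), with a median of -2.93. Their surroundings up to 100 kb, however, had a median difference of -7.64, close to the -8.14 of the lower islands. Past 20 points, the flank was higher in OCI-AML3 at 15 and lower at 9 of these 127 islands. The same counts were 6 and 47 of the 390 lower islands, and 43 and 465 of the 4059 within 20 points. Over the 4576 islands with a flank, the difference of the island and that of its flank correlated weakly, with a Pearson r of 0.197 and a Spearman rho of 0.292.

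Islands of many CpGs were repeats or poorly covered in several cases. The longest, chr12:34486465-34511598 in the region 304 kb from ALG10, held 1391 CpGs over 25134 bp, and its level was 53.5% ± 38.6 in OCI-AML3 and 67.8% ± 32.0 in OCI-AML5, with flanks of 49.9% and 66.4%. At chr4:187880653-187894499 near FAT1, of which tandem repeats made up 90.1%, the levels were 88.4% and 75.9%, but 313 of 812 CpGs were covered and the depth in OCI-AML5 was 4.0. The next, chr7:63211069-63225740, 233 kb from ZNF722, had 90.6% of such repeated words and stood at 75.3% and 76.8%. The island chr20:60517816-60523795 near CDH4 stood at 89.9% and 85.7% with a depth of 3.0 in OCI-AML5. The last, chr1:161414859-161421871, 53.3 kb from FCGR2A, stood at 82.4% and 83.7%.

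Of the largest islands low in both lines, the best covered lay upstream of HIC1, a tumour suppressor gene of the zinc finger class. This island, chr17:1952673-1955190, held 273 CpGs at 4.84% ± 14.0 in OCI-AML3 and 17.1% ± 27.7 in OCI-AML5, within flanks of 86.9% and 91.7%, and was 2.26 kb from the TSS of HIC1. Its core, printed above, was unmethylated in both lines, so the difference lay outside that core. The island chr10:102413649-102416786 near PAX2, a gene of kidney development, held 223 CpGs at 10.4% ± 20.8 and 19.98% ± 23.6. The other 3 (chr2:90447561-90451027, chr2:91996811-91998629 and chr8:145446907-145449140) had a median depth of 6.0 calls or fewer in both lines. At chr2:91996811-91998629 and chr8:145446907-145449140 the median depth was 0 in both lines, with 55 of 213 and 52 of 219 CpGs covered.

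Extreme depth was found at pericentromeric islands. The 5 islands with the greatest depth, 4 of them on chromosome 16 between chr16:46392942 and chr16:46407197 and chr10:42599172-42600384 on chromosome 10, had median depths between 2175.5 and 3707.0 in OCI-AML3 and between 3527.5 and 5600.0 in OCI-AML5. At the deepest, chr16:46392942-46393548, the level was 66.4% ± 20.1 in OCI-AML3 and 76.6% ± 14.9 in OCI-AML5. All 5 were lower in OCI-AML3, by 9.37 to 10.8 points, and their flanks differed more, by -14.2 to -19.2 points. The autosomal medians were 28 and 31, and whether reads of several genomic copies were placed on these islands was not tested.

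Median levels varied little with the distance to the nearest TSS, while the lower part of the range rose. From 2 to 5 kb the median levels of 1048 islands were 80.2% and 85.5%, from 5 to 20 kb 81.0% and 86.7% over 2219, from 20 to 100 kb 83.5% and 86.9% over 1202, and beyond 100 kb 81.8% and 85.8% over 143. The lower quartile in OCI-AML3 was 45.2%, 46.7%, 67.3% and 68.0% in that order, and in OCI-AML5 47.1%, 56.5%, 76.3% and 78.3%. Islands high in both lines made up 60.02%, 63.9%, 73.7% and 79.7%, and islands low in both 8.68%, 8.52%, 3.99% and 0 of the 143 beyond 100 kb. The share of islands higher in OCI-AML3 by over 20 points was 4.48%, 2.75%, 1.50% and 1.40% in that order, and the share near developmental genes was 13.5%, 9.64%, 7.32% and 6.99%. At the limit of the definition, 397 islands 2 to 3 kb from a TSS stood at 79.0% and 85.8%, and 449 islands 1 to 2 kb from a TSS and outside protein-coding genes, just outside the definition, at 81.2% and 86.2%.

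Long noncoding genes overlapped 830 of the islands, whose medians were 83.5% and 87.7%, against 81.2% and 86.2% for 3677 islands overlapping no annotated gene. In the outer 2 Mb of chromosome arms 760 islands had a median difference of -5.04 points, with 81 lower and 14 higher by over 20 points, against -2.51 in the other 3852. By chromosome the median difference ran from -1.23 points on chromosome 13 to -6.11 on chromosome 22 and -6.07 on chromosome 16. The share of islands lower by over 20 points ran from 3.20% on chromosome 18 to 14.8% on chromosome 9, and on chromosome 7 17 islands were lower and 17 higher.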

How the data were processed

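Genomic DNA of OCI-AML3 and OCI-AML5 was bisulfite converted and sequenced in paired ends, 1 library per line. Per the labels and the study's methods, the authors aligned reads to hg19 with Bismark and Bowtie 0.12.8. The deposited files give, for each CpG, whole-number counts of calls read as methylated and as unmethylated, with both strands summed, with no normalization. Which column holds methylated calls was read from the mitochondrial genome, where the share was 0.168% and 0.101%. Removal of duplicate reads is not given in the sources used here.

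Islands were found from the CpG positions and classed with a GENCODE annotation lifted to GRCh37. Levels, differences and depths were computed in Python 3.11.15 with numpy 2.4.6, pandas 2.3.3 and scipy 1.17.1, and Fisher's exact test, two-sided, was adjusted by the Benjamini-Hochberg method over 24454751 nuclear CpGs with more than 5 reads in both lines. The scripts were tested on simulated data. Shares carry Wilson 95% intervals over islands, and intervals and limits from a count of 0 cover counting error only.

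The islands' rule and the gene lists were chosen with earlier results of these data known. Named islands were the 10 largest decreases and increases, the 5 with the most CpGs over all and among those low in both lines, the 5 deepest, the 3 largest families, and up to 4 per gene list by size of difference. Alternatives covered read minimum, density, joining distance, island size, TSS distance, annotation, depth, families, chromosome 8 and size of difference. Sex chromosomes were left out, and some sequences are not reported here.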

Additional observations from a re-analysis of the deposited data

How the results depend on the processing

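No replicate or paired analysis was possible because each line had 1 library, so values below describe these 2 libraries. No alternative turned the direction of the median difference, which ran from -4.05 to -1.79 points over 14 alternatives: it was -4.05 with more than 30 other CpGs as the density limit, -1.79 with more than 50, -2.56 for islands of at least 50 CpGs and -3.59 without sequence families. The share of islands lower by over 20 points was 7.49% at the density limit of 30, 7.64% over 10 kb from a TSS and 11.0% without families, and 21.9% and 4.16% with limits of 10 and 30 points. The share higher was 1.32% and 3.91% at density limits of 30 and 50, 2.27% and 1.79% over 5 and 10 kb from a TSS, 3.56% without families, and 5.90% and 1.52% with limits of 10 and 30 points. The share of CpGs called lower was 14.3% with at least 10 reads, 14.2% and 12.8% at density limits of 30 and 50, 13.3% and 13.7% with joining over 100 and 500 bp, 13.3% and 13.1% over 5 and 10 kb from a TSS, 12.3% at a depth of 0.5 to 2 times the autosomal median and 16.3% without families. The causes of these shifts were not tested. The remaining alternatives, such as leaving out chromosome 8, left each value within its interval. Leaving out soft-masked sequence was not run, since the genome used marks no repeats. Depth limits levels in poorly covered islands, repeated ones among them, with a median of 3.0 calls per CpG at some and 0 at others.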

Other observations

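The 30 islands that were low in OCI-AML3 and high in OCI-AML5 had a median level of 11.1% against 82.3%, and 3 of them lay nearest to developmental factors. Outside the largest differences, and chosen after their values were seen, chr15:76638181-76640140 near SCAPER stood at 0.274% in OCI-AML3 and 75.4% in OCI-AML5, chr5:42950785-42952812 near the selenoprotein gene SELENOP at 6.19% and 82.6%, chr12:4273504-4274467 near the cyclin gene CCND2 at 13.9% and 76.2%, and chr15:67325632-67326585 near SMAD3, a mediator of TGF-beta signals, at 13.7% and 84.5%. Of the 7 islands in the reverse state, 3 lay nearest to developmental factors. The one outside the 10 largest increases, chr7:42896466-42896896 near C7orf25, stood at 68.2% in OCI-AML3 and 15.01% in OCI-AML5, with a depth of 63.5 and 40 calls per CpG.

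Islands of 200 or more CpGs, 78 in number, had a median level of 73.9% in OCI-AML3 and 68.1% in OCI-AML5, and 19 of them (24.4%) lay nearest to developmental factors. Their observed over expected CpG ratio had a median of 0.758, and 6 were lower and 7 higher by over 20 points. The 140 islands with tandem repeats over at least 50% of their length stood at 85.0% and 87.7%, with 8 lower and 3 higher.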
